A study of Mus musculus with 3 samples.

Results

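The 10 genes followed here belong to a set known for RNA made in a burst at the 2-cell stage of the mouse embryo: Tcstv1, Tcstv3, AF067061 and Gm20767 on chromosome 13, Gm8300, BB287469, Gm2016 and Gm2022 on chromosome 12, Gm4340 on chromosome 10 and Usp17lc on chromosome 7. They are 10 of the 24842 named genes on the array, and 12 of its 56605 probes carry their names. They were taken by gene name, in the knowledge that several of them were among the lowest genes on the Cd74 array, so their difference between the Cd74 and empty vectors is a description and was not tested. The RNA came from Hepa1c1c7 cells, a mouse hepatoma line, transfected with a Cd74 vector (Cd74 is the invariant chain of MHC class II), a Tmem54 vector (Tmem54 encodes a transmembrane protein) or an empty vector. Each vector has 1 array of 1 culture, so no value has a replicate, no p-value is given and a vector cannot be told apart from its culture. The labels used here do not give the time after transfection, or whether cells were selected or cloned.

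In the mouse embryo the genome is first switched on around the 2-cell stage, and a small set of genes, many of them in tandem copies and driven by retroviral repeats, is transcribed there and then shut off. The homeodomain factor Dux switches this set on, chromatin repressors such as Trim28, Setdb1 and Kdm1a keep it silent, and a rare fraction of cultured mouse embryonic stem cells turns it back on. Tcstv genes (2-cell-stage, variable group) and the Zscan4 genes have been linked to telomere lengthening in mouse embryonic stem cells, the Eif1a-like genes are relatives of translation initiation factor eIF1A, and Usp17l genes encode deubiquitinating enzymes.

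The 10 genes are read by probes of 60 bases, and 6 of the 12 probes are listed by the array files against more than 1 named gene. The sequences show how near the copies are, which limits what each probe can tell apart. The Gm8300, Gm2022 and BB287469 probes overlap in a stretch of 25 bases, of which 20 are shared by all 3 genes. Capitals mark the positions at which the copies differ:
Gm8300: cttcatttggcAtGAGtgtgtTttg
Gm2022: cttcatttggcAtACTtgtgtCttg
BB287469: cttcatttggcCtCCGtgtgtCttg
In the Tcstv group, the Tcstv1 probe and the dimmer AF067061 probe share 22 of 24 aligned bases, with the differing letters again in capitals:
Tcstv1: agaTcaaagccaCtgctctgagga
AF067061: agaGcaaagccaTtgctctgagga
The brighter AF067061 probe and the Gm20767 probe share an unbroken run of 30 bases, shown because no letter of it tells these genes apart:
shared run: catctgggttttggttgtgtttgtttattt
The array lists the Tcstv3 probe against AF067061 too, and the dimmer AF067061 probe against Tcstv3 and Gm20767. Values within the chromosome 13 group are therefore not separate measurements of 4 genes.

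The Gm2016 probe is shown whole because it is the member that behaved differently. It is listed against Gm2016, Gm4027, Gm5662 and Gm8300 and lies at chr12:89115318-89115377 in the build of the array files, mm9. Like every other member probe, it has at least 1 reading frame with no stop:
Gm2016: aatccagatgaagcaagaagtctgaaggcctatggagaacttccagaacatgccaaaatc
Usp17lc has a second, dimmer probe that can be set beside the Usp17ld probe of the same family. In the 30 bases printed, 26 are the same, with the other letters in capitals:
Usp17lc: gattcacctgcTcagatccaCagAaaaCtg
Usp17ld: gattcacctgcCcagatccaTagCaaaTtg
Across the whole 60 bases these probes share an unbroken run of 41. Every member probe is printed on the array in 1 spot, and the spots lie between rows 22 and 376 of 384.

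All 10 genes were below the empty vector on the Cd74 array, 9 of them by at least 2-fold, and all 10 were slightly above it on the Tmem54 array. Over all genes compared, 1.4% were at least 2-fold lower, 1.02% at least 2-fold higher and 2.42% changed by 2-fold in either direction with Cd74, shares given only as background because the members were chosen on this contrast. The median member difference of Cd74 minus Empty was -1.83 on the log2 scale, where the median of all genes was 0.013, and that of Tmem54 minus Empty was 0.25, where all genes had -0.0026. In RNA from whole cultures, fewer cells that express a gene and less RNA in each such cell cannot be told apart. The error model of the scanner software put the error of a log2 difference at 0.20 to 0.56 for these probes. It knows nothing of the spread between cultures.

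**Figure D1:**
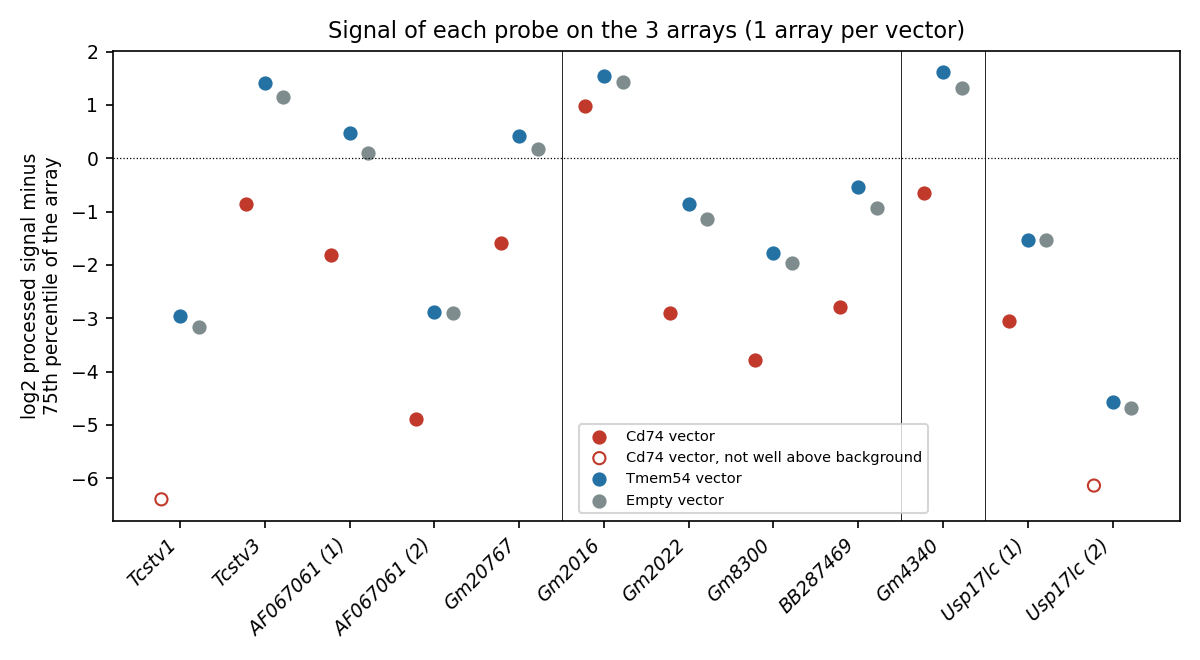
Centred log2 signal (y axis; the array's 75th percentile is 0) for each of the 12 probes (x axis) on the Cd74, Tmem54 and Empty arrays, 1 point per array. Open circles are not well above background, lines separate the chromosome 13, chromosome 12, chromosome 10 and chromosome 7 genes, and in all 12 probes the Cd74 point is the lowest and the Tmem54 point the highest.

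Of the Tcstv group, Tcstv1 had a processed signal of 7.79 with Cd74, 89.6 with Tmem54 and 76.3 with the empty vector. It was the only member whose brightest probe was not well above background on the Cd74 array, and its difference is therefore a bound, at least 5.41-fold lower with Cd74 than with the empty vector and at least 6.29-fold lower than with Tmem54. These bounds hold for the processed signal: with the normexp background correction the log2 differences were -0.92 and -1.07, so that the comparison with the empty vector falls short of 2-fold. Tcstv3 had a signal of 362 with Cd74, 1830 with Tmem54 and 1518 with the empty vector. Its log2 difference of Cd74 minus Empty was -2.00 ± 0.20 (model error), a 4.01-fold lower signal, and that of Tmem54 minus Empty was 0.26, close to the model error.

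AF067061, which the files describe only as a cDNA sequence, had a signal of 186 with Cd74, 960 with Tmem54 and 730 with the empty vector at its brighter probe. The dimmer probe had 22.2, 93.7 and 91.8 in the same order. The log2 differences of Cd74 minus Empty were close to each other, -1.91 and -1.98, while those of Tmem54 minus Empty were 0.38 and 0.017. A Tmem54 difference above the model error was thus seen at 1 of the probes of this gene. Gm20767, a predicted gene, had a signal of 218 with Cd74, 920 with Tmem54 and 770 with the empty vector, and differed by -1.76 and 0.24. In this group the Cd74 signal lay far below the others for every probe, and the Tmem54 and Empty signals lay close together.

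The chromosome 12 genes fell into 3 that moved like the Tcstv group and 1 that did not. Gm8300 (probe at chr12:88858331-88858390) had a signal of 47.6 with Cd74, 201 with Tmem54 and 176 with the empty vector, and differed by -1.82 ± 0.23 for Cd74 minus Empty. Gm2022 (chr12:89276065-89276124) had 87.6, 380 and 312, and a difference of -1.77 ± 0.21. BB287469 (chr12:89058287-89058346) had 94.8, 477 and 358, and a difference of -1.85 ± 0.21. The Tmem54 differences of these 3 genes were 0.18, 0.27 and 0.40, and that of BB287469, 0.40, was the highest of all 12 probes.

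Gm2016 had a signal of 1289 with Cd74, 2025 with Tmem54 and 1841 with the empty vector. Its order over the arrays was the same, but its difference of Cd74 minus Empty was -0.45 ± 0.20, which is short of 2-fold. Because the Gm2016 probe is listed against Gm8300 as well, the 2 probes listed for Gm8300 gave -0.45 and -1.82. Whether the Gm2016 probe reads further transcripts was not tested.

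Gm4340 on chromosome 10 (chr10:103633507-103633566), a predicted gene whose probe is also listed against Gm20765 and Gm21312, had a signal of 416 with Cd74, 2120 with Tmem54 and 1705 with the empty vector. It differed by -1.97 ± 0.20 for Cd74 minus Empty and by 0.30 for Tmem54 minus Empty. Usp17lc, the deubiquitinase gene of chromosome 7, had 78.7 with Cd74, 240 with Tmem54 and 237 with the empty vector at its brighter probe (chr7:110568320-110568379). The difference of Cd74 minus Empty was -1.52 ± 0.21, or -0.99 and just short of 2-fold with normexp, and that of Tmem54 minus Empty was 0.0077. Its second probe, shown above, had 9.32, 29.2 and 26.6, and was not well above background with Cd74. That probe gave a bound of at least 1.89-fold lower with Cd74 than with the empty vector, which does not reach 2-fold.

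With the Tmem54 vector no member passed 2-fold against the empty vector, where 0.812% of all genes were lower, 0.522% higher and 1.33% changed in either direction. The 10 differences ran from 0.0077 to 0.40, each within 2 model errors of 0, and all were above 0, as were 49% of all genes. The order Tmem54, then Empty, then Cd74 from high to low held for 12 of 12 member probes and for 25.4% of the 14473 genes well above background on all arrays. The part of this order that puts Cd74 below Empty follows from how the members were chosen. The sets also differ, since the Tcstv1 probe and the dimmer Usp17lc probe were not well above background with Cd74. Since probes of the group share sequence and the values come from the same 3 arrays, the 12 probes do not count as independent. The same array, that of the empty vector, enters both of these comparisons.

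In the comparison of Cd74 with Tmem54, all 10 genes were lower with Cd74, 9 of them by at least 2-fold. Of all genes 1.69% were at least 2-fold lower, 1.63% higher and 3.32% changed in either direction. The median member difference was -2.15, against 0.026 for all genes. Values over all genes are again background only, because several members were known to be among the lowest genes on the Cd74 array. That array enters this comparison too, so it gives no separate support. Gm4340 had a 4.83-fold lower signal with Cd74 than with Tmem54, AF067061 4.90-fold, Tcstv3 4.79-fold and BB287469 4.77-fold. Usp17lc was 2.89-fold lower and Gm2016 1.49-fold lower.

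**Figure D2:**
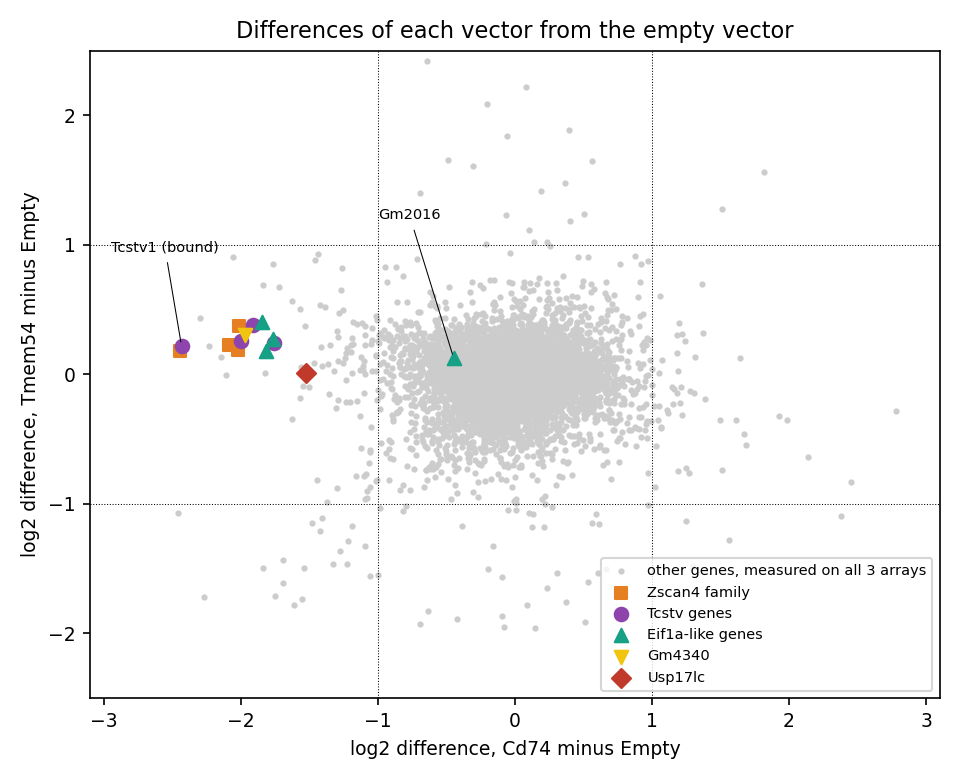
Log2 difference of Tmem54 minus Empty (y axis) against that of Cd74 minus Empty (x axis) for each gene, with genes measured on all 3 arrays in grey and dotted lines at 2-fold. Axes are cut at 3.1 and 2.5, so that a few genes such as Cd74 itself lie outside; the members other than Gm2016 lie between -2.43 and -1.52 on the x axis beside the Zscan4 genes. Both axes subtract the same empty-vector array, so no correlation is read from the plot.

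Other genes of the 2-cell programme were set beside the members from lists chosen with earlier results known. The Zscan4 genes, for zinc finger proteins of the same embryonic burst, were lower with Cd74 for 4 of the 4 on the array, with differences of Cd74 minus Empty from -2.45 (Zscan4c) to -2.01 (Zscan4f) and a median of -2.06. Zscan4f had a signal of 67.9 with Cd74, 375 with Tmem54 and 286 with the empty vector. Its Tmem54 difference of 0.38 was the highest of the family, whose lowest was 0.18, and several Zscan4 probes are listed against more than 1 copy too.

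Of 39 names of further 2-cell genes 8 had no probe, and the others stood for 29 genes outside the members. Signal stood well above background somewhere for 15 of these and nowhere for 14, among them Obox3, Obox5, Tdpoz1 and Ubtfl1. Of the 15, 5 were at least 2-fold lower with Cd74 than with the empty vector and 0 higher, where 1.4% and 1.02% of all genes were. The median was -0.64, with 7 of the values being bounds. The 7 genes with bounds were not well above background with Cd74 and passed the filter through the other arrays. Their bounds could therefore only point to a lower signal with Cd74. The deubiquitinase gene Usp17la had a signal of 97.0 with Cd74, 270 with Tmem54 and 249 with the empty vector, a difference of -1.30. Pramel19, of the Prame family, had 19.0, 59.9 and 50.7, a difference of -1.35. Bounds put Tmem92 at least 3.81-fold, E330014E10Rik at least 2.58-fold and Pramel16 at least 2.03-fold lower with Cd74 than with the empty vector. The 2-cell marker Zfp352 had 881, 894 and 881 at its brightest probe and so did not follow the members.

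Probes of the Usp17l family gave different values, but dim signals do not show whether the copies differ. Usp17lc and Usp17la fell by 1.52 and 1.30 on the log2 scale in Cd74 minus Empty at their brightest probes. Usp17ld, measured on all arrays at 25.3 with Cd74, 33.4 with Tmem54 and 37.5 with the empty vector, gave -0.51 ± 0.30 (model error), beside a bound of -0.91 at the Usp17lc probe that shares its sequence. Usp17lb and Usp17le were not well above background with Cd74, and their bounds of -0.15 and -0.67 leave the size of their differences unknown. A probe with no gene symbol at chr7:111802099-111802158 shares a run of 41 bases with a Usp17lc probe. It had a signal of 83.3 with Cd74, 205 with Tmem54 and 225 with the empty vector, a difference of -1.37.

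Other probes of the array share runs with the Tcstv probes and did not all follow them. A probe without a gene symbol, on unplaced sequence of mm9, shares a run of 18 bases with the Tcstv3 probe. It had a signal of 244 with Cd74, 1192 with Tmem54 and 1032 with the empty vector, a difference of -2.01. The probe of BC147527, a neighbour of Tcstv3 in gene order, shares a run of 17 bases with that of Gm20767. It had 1198, 2486 and 2110, a difference of -0.75, which is short of 2-fold. A dim probe without a gene symbol at chr12:110844036-110844095 shares a run of 18 bases with that of Gm20767. It had 14.3 with Cd74, 17.9 with Tmem54 and 27.8 with the empty vector, and was highest with the empty vector, unlike the members.

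In the RefSeq gene order of assembly GRCm38.p6, used here for order only, the Tcstv group and the Eif1a-like group each lie among further copies. On chromosome 13 the 5 measured genes before Tcstv1, from Hmgcs1, for an enzyme of sterol synthesis, to AF067063, differed by -0.33 to 0.12 for Cd74 minus Empty. On chromosome 12 the 5 measured genes before Gm8300, from Sptlc2, for an enzyme of sphingolipid synthesis, to Snw1, for a splicing factor, differed by -0.16 to 0.26. None of these 10 flanking genes passed 2-fold. On chromosome 10 the 3 measured flanking genes differed by -0.53 to 0.050. The lowest, Tmtc2, had 166 with Cd74, 320 with Tmem54 and 250 with the empty vector, in the members' order. On chromosome 7 the 2 measured flanking genes differed by -0.040 to 0.53 for Cd74 minus Empty, and Olfr610 by -1.61 for Tmem54 minus Empty. Between the members of chromosome 12, Gm21319 had a signal of 50.7 with Cd74, 231 with Tmem54 and 229 with the empty vector, a difference of -2.11. Gm21319 was singled out after its values were seen. Gm16381, also between the members, had a signal of 10590 with Cd74, 11950 with Tmem54 and 11490 with the empty vector and differed by -0.052.

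**Figure D3:**
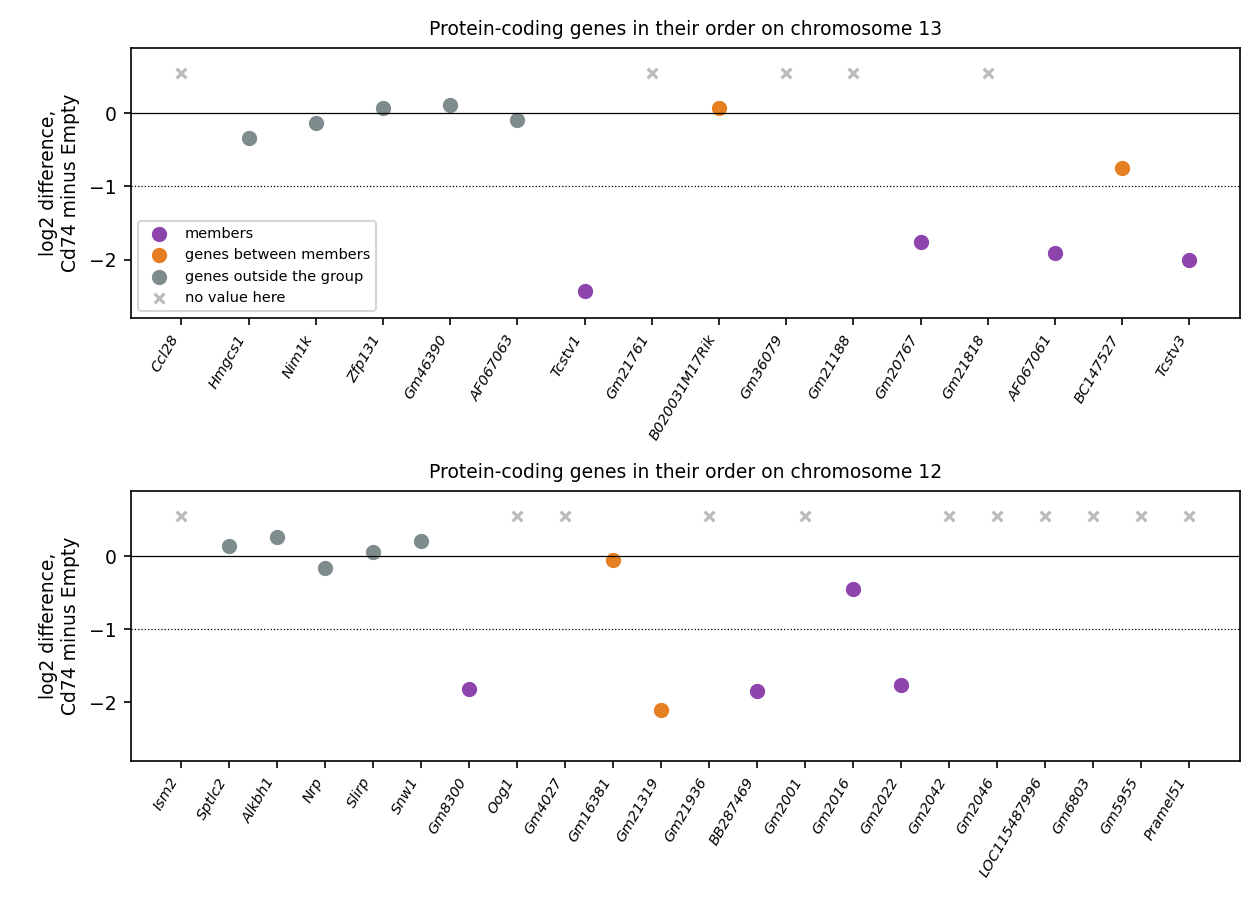
Log2 difference of Cd74 minus Empty (y axis) for protein-coding genes in their RefSeq order (x axis, not to scale) around the members on chromosomes 13 and 12. Purple points are members, orange points lie between members, grey points lie outside and crosses mark genes without a value here; Tcstv1 is a bound, and the grey genes stay between -0.33 and 0.26.

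No gene on the list of regulators of the 2-cell programme passed 2-fold. Of 34 regulators 33 were well above background, 0 were at least 2-fold lower or higher on either vector array than on the empty-vector array, and their median for Cd74 minus Empty was 0.024. Trim28, a corepressor of retroviral repeats, had a signal of 63960 with Cd74, 67490 with Tmem54 and 67040 with the empty vector. The histone methyltransferase gene Ehmt2 differed by -0.23, the deacetylase gene Hdac1 by -0.27 and the nucleolin gene Ncl by -0.091. Over the list the differences of Cd74 minus Empty ran from -0.32 to 0.51 (Mga), with 18 above 0 and 15 below. The regulator not measured was Dppa2, an activator of Dux, which was not well above background on any array, and Dux itself had no value here. The canonical relatives of the Eif1a-like genes did not follow them: Eif1a had 9169 with Cd74, 9491 with Tmem54 and 9568 with the empty vector, and 0 of 7 eIF1 and eIF1A related factors passed 2-fold. The brightest of them, Eif1, Eif1ad, Eif1ax and Eif5, differed by 0.30, 0.21, 0.099 and 0.024 for Cd74 minus Empty.

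**Figure D4:**
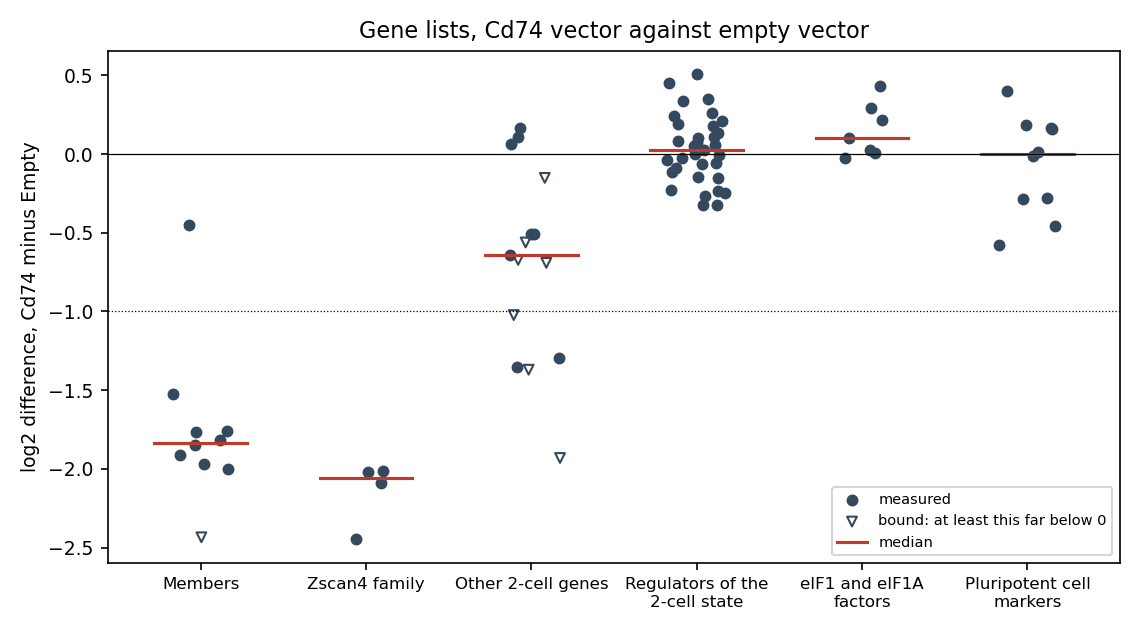
Log2 difference of Cd74 minus Empty (y axis) for the members and for 5 gene lists (x axis), 1 point per gene, with the median in red and a dotted line at 2-fold lower. Triangles are bounds; the members and the Zscan4 family have medians of -1.83 and -2.06, and the regulators 0.024.

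Beside these genes, markers of cell types were read on the same arrays. Of 14 hepatocyte markers 9 were well above background, among them Afp, Krt8 and Krt18, while Apoa1, Apob, Fgb, Hnf4a and Ttr were not on any array. The hepatocyte median for Cd74 minus Empty was -0.20, with 2 of 9 above 0: Krt18 and Krt8, the brightest, differed by -0.017 and -0.041, Afp by 0.018 and Foxa2 by 0.068. Alb, for albumin, lay at the low end, with 2993 with Cd74, 10260 with Tmem54 and 5727 with the empty vector, a difference of -0.87, and the dim Fga was not well above background with Cd74. Of 6 fibroblast markers 5 were well above background, with a median of -0.55. Dcn, by far the brightest, had 75620 with Cd74, 57020 with Tmem54 and 67720 with the empty vector, opposite to the members' order. Col1a1, for collagen, had 4750, 10560 and 8436, in their order. Against Tmem54, Col1a1 and Col3a1 were at least 2-fold lower with Cd74, Pdgfrb differed by -0.75, Col1a2 by -0.28 and Dcn by 0.48. Of 15 pluripotency markers 10 were well above background, with a summed signal of 21840 with Cd74, 23810 with Tmem54 and 22500 with the empty vector. Their median for Cd74 minus Empty was 0.0016, with 5 of 10 above 0 and a range from -0.58 to 0.40. Klf4, the brightest, differed by 0.18, Pou5f1 by -0.29 and Nanog by 0.16, and Tbx3 had the members' order with 3234, 6743 and 5048. The dim Esrrb differed by 1.18 for Tmem54 minus Empty, and Sox2, Zfp42, Dppa3, Fgf4 and Nr0b1 were not well above background on any array. Of 9 germ cell markers 7, among them Ddx4 and Dazl, were not well above background on any array. The other 2 were Tex101, with 1885, 2635 and 2318 in the members' order, and the dim Sycp3. They differed by -0.23 and 0.47 for Cd74 minus Empty. Of 6 immune markers 4 were above background and differed by -0.21 to 0.52 (Cd68), with 1 above 0. Of 3 endothelial markers 1, the dim Pecam1, was above it and differed by -0.56. The part of such shifts in the members' result was not tested. The transfected genes matched their labels: the Cd74 signal was 10860 with its own vector, 22.4 with Tmem54 and 26.8 with the empty vector, and Tmem54 was well above background with its own vector only.

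The genes most like the members over the 3 arrays were sought among 9405 bright genes outside the group. The measure was the distance on the log2 scale from the median pair of member differences, -1.83 for Cd74 and 0.25 for Tmem54. The nearest of these bright genes were AA684185 (distance 0.24), Nrep (0.32), Mndal (0.34), Atoh8 (0.37) and Id2 (0.46). The search left out dimmer genes, among them the 4 Zscan4 genes. Their differences ran from -2.45 to -2.01 for Cd74 minus Empty and from 0.18 to 0.38 for Tmem54 minus Empty. Zscan4b (-2.02 and 0.19) and Zscan4f (-2.01 and 0.38) lay nearer to the median pair than AA684185. Zscan4c (-2.45 and 0.18) lay further from it than Id2. AA684185 was thus the nearest among bright genes only. AA684185 had a signal of 297 with Cd74, 1125 with Tmem54 and 1106 with the empty vector. Likeness over 3 arrays of which 1 is shared is a description of these values.

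RefSeq windows from 250 bases before to 50 after the start were given for 4 of the 10 members. Sites of Dux are known to be built on a core that reads GATTNAAT, and this core was searched on both strands after the windows had been seen. It stands in 3 of the 4 member windows, AF067061, BB287469 and Gm4340, and not in that of Usp17lc. Over all 32851 windows 1.96% hold it. It also stands in 4 of 4 Zscan4 windows, in 5 of 20 windows of the further 2-cell genes and in 1 of 39 windows of the regulators. The 20 windows belong to 19 of the 39 names, looked up as listed. Genes measured here under a newer symbol, such as Pramel16 and Pramel19, were not searched under it. The 5 carriers among the further 2-cell genes have no value here. Duxf3, Gm4027, Gm428 and Tdpoz5 had no probe under their names, and Rfpl4 was not well above background on any array. The core with a T before it and CA after it is in 0.0335% of all windows and in none of the member windows. A match is a run of letters and shows no binding. The 250 bases before the start of the 3 members are printed on the plus strand of GRCm38.p6 with the core, on either strand, in capitals, at chr13:120262845-120263094, chr12:87816327-87816576 and chr10:104193792-104194041:
AF067061: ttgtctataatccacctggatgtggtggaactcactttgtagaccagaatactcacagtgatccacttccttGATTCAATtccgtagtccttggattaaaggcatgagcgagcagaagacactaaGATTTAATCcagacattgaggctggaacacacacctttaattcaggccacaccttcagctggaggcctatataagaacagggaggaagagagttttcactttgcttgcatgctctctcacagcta
BB287469: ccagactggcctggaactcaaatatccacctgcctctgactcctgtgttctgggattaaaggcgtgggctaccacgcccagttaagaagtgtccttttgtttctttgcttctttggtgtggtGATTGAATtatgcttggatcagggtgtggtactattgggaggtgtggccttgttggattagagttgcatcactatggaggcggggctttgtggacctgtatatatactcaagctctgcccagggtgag
Gm4340: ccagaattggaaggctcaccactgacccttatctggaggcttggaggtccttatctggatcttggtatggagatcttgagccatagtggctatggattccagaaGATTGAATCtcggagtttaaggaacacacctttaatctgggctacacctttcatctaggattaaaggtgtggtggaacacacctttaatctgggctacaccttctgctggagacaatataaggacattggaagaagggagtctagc
The core begins 178 bases before the start in AF067061, which has a further match on each strand nearer the start, 128 before it in BB287469 and 146 before it in Gm4340, where overlapping matches stand on both strands.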

How the data were processed

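RNA of 3 transfected cultures was measured on 1-colour (Cy3) Agilent arrays, 1 per vector, and groups were taken from the transfection label. The authors' files hold intensity values made with the scanner software Agilent Feature Extraction, version 12.0.3.1 per the file headers and the submitters' notes on processing. The processed signal is a background-subtracted, detrended intensity, and other deposited columns used are flags of the same software. A deposited value table holds a linear signal that equals the processed signal divided by a constant per array, 559.8 for Cd74, 580.7 for Tmem54 and 580.3 for Empty, with column medians of 0.0393, 0.0390 and 0.0409.

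The value used was log2 processed signal minus the array's 75th percentile over spots other than controls. Spots flagged as outliers were left out (119 to 135 per array), none was saturated, and 55.7% to 57.2% were well above background. Each gene was read from its brightest detected probe. If the probe was undetected on only 1 array of a pair, that array's value was replaced by its lowest detected signal, or by the probe's own signal if higher, which makes the difference a bound. Symbols came from RefSeq (GRCm38.p6), matched for 33762 probes by accession, 9865 by symbol and 310 by synonym. No test was possible with 1 array per vector, whose number limits the precision. The members and lists were chosen with earlier results of these data known, and genes of a list were named when they passed 2-fold in a comparison, otherwise up to 4 of its brightest, with all Usp17l and eIF1A genes by name. Cell type markers, flanking genes and others beyond this rule were named with their values known. Alternatives were normexp (limma 3.58.1, offset 50), centring on detected probes, quantile normalization, the mean over probes, bright genes only (above background on all arrays, brighter signal at or above the median) and the deposited table. The counting step was tested on simulated data with planted changes. The simulated noise was smaller than the model error of these arrays, and the choice among probes was not simulated. That test therefore does not show how often noise of these arrays passes 2-fold. Python 3.11.15 was used.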

Additional observations from a re-analysis of the deposited data

How the results depend on the processing

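Counts over all genes moved with the processing. The members were chosen on the difference between Cd74 and Empty, so a steadier count among them would carry no weight. Normexp left 59 genes at least 2-fold lower and 55 higher for Cd74 against Empty (219 and 160 with the processed signal). It left 32 and 32 for Tmem54 against Empty (126 and 81) and 103 and 91 for Cd74 against Tmem54 (261 and 251). The filter for bright genes left 31 and 22, 13 and 2, and 59 and 47 in the same order. The direction of all 10 members for Cd74 minus Empty and for Tmem54 minus Empty was the same with normexp, centring on detected probes, quantile normalization, the mean over probes and the deposited table, and for the 6 bright members with the filter for bright genes. Normexp moved the median member difference to -1.31 for Cd74 minus Empty and to -1.61 for Cd74 minus Tmem54, with 7 and 9 members at least 2-fold lower, where 0.377% and 0.668% of all genes were. Tcstv1 (-0.92), Usp17lc (-0.99) and Gm2016 were then short of 2-fold against the empty vector. The filter for bright genes left 5 members at least 2-fold lower in each of these comparisons, since only 6 pass it, where 0.329% and 0.627% of 9411 bright genes were lower. Added after seeing the data, 1 value for each of 4 families, with Gm4340 taken as its own family by chromosome because its kinship to the Eif1a-like genes was not settled here, gave medians of -1.88, 0.24 and -2.15 for Cd74 minus Empty, Tmem54 minus Empty and Cd74 minus Tmem54, and leaving out Gm2016 gave -1.85, 0.26 and -2.25. Dim members limit what the arrays show: 4 of 10 do not reach the bright filter. No paired analysis was possible because each vector has 1 array.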

Other observations

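Sp110, for a nuclear body protein, was among the further 2-cell genes and gave different values at its probes. Its brightest probe had a signal of 176900 with Cd74, 184700 with Tmem54 and 172000 with the empty vector. A dimmer probe listed against Sp110 and LOC100041034 had 40.6, 188 and 152, a difference of -1.84 for Cd74 minus Empty. A further dim probe gave -2.55 and a last one -0.60. The dim probes, singled out after their values were seen, were thus lower with Cd74 by different amounts, and the brightest was not. Zfp352 likewise has a dim second probe, with 6.91 with Cd74, 10.2 with Tmem54 and 147 with the empty vector, well above background on the last array only.

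Outside the members and Zscan4, genes at least 2-fold lower with Cd74 than with the empty vector had the core GATTNAAT in 6 of 176 RefSeq windows (3.41%), and the other genes compared had it in 177 of 15345 (1.15%). Over all windows the share was 1.96%. The core was searched after the member windows had been seen, and the difference between these shares was not tested. The 6 carriers, named after their values were seen, were Cadm3, Gm13043, Gm21319, Irf7, Klrb1f and Ranbp3l. Gm21319 is the gene that lies between the Eif1a-like members.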
